A study of Mus musculus with 9 samples.

Results

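A set of 10 mast cell genes was followed through whole skin of mice with and without Cd1d, the molecule that presents lipids to natural killer T cells. They are the tryptases Tpsb2 and Tpsab1, the chymases Cma1, Mcpt4 and Mcpt1, the carboxypeptidase Cpa3, the IgE receptor chains Fcer1a and Ms4a2, the histamine-forming enzyme Hdc and the growth factor receptor Kit. All probe sets annotated to 1 of these 10 genes were taken, which gave 15 of the 12488 probe sets on the array (3 for tryptases, 6 for chymases and 6 for the others). By the annotation, no probe set was assigned to a member together with another gene. The samples were skin of 5 Cd1d -/- mice on the C57BL/6 background and of 4 C57BL/6 Cd1d +/+ mice, described as matched for age and sex. None had been irradiated with UVB, their ages are not given in the sources used here, and each mouse had its own RNA and its own Affymetrix MG-U74 array. Values are MAS5 signals in arbitrary units, and those of single mice are given in the order of replicate number, 1 to 5 for knockout and 1 to 4 for wild type.

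Mast cells store proteases, histamine and heparin in granules and release them when antigen cross-links IgE held by the receptor FcεRI. Kit, bound by stem cell factor, keeps mast cells alive in tissues. In mice, connective tissue mast cells such as those of the skin are known to hold Tpsb2, Cma1, Mcpt4 and Cpa3, while Mcpt1 is the chymase of mucosal mast cells. Kit is also carried by melanocytes, and Fcer1a and Ms4a2 also by basophils.

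The genes stand in clusters. Tpsab1 and Tpsb2 are direct neighbours on chromosome 17, with 0 genes between them in the RefSeq table of C57BL/6J (GRCm38.p6). Cma1, Mcpt1 and Mcpt4 lie in 1 cluster on chromosome 14, with 3 genes between Cma1 and Mcpt1 and 2 (Mcpt2 and Mcpt9) between Mcpt1 and Mcpt4. The RefSeq table lists Tpsab1 as a transcribed pseudogene and the other 9 genes as protein coding, and C57BL/6 mice are known to carry a defective copy of Tpsab1.

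Promoters are shown for the chymases, and for Cpa3, the carboxypeptidase stored with them. Each is the 250 bases before the RefSeq transcript start, written 5′ to 3′ along the gene in build GRCm38.p6. Capitals mark GATAA or its reverse complement TTATC, the letters of the core that GATA factors recognise.
Cma1 (chr14:55944676-55944925, minus strand): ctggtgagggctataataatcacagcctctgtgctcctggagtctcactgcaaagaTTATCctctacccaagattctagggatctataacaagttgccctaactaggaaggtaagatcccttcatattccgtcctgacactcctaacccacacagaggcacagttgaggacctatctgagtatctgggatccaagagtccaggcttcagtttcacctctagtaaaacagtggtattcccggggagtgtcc
Mcpt4 (chr14:56062311-56062560, minus strand): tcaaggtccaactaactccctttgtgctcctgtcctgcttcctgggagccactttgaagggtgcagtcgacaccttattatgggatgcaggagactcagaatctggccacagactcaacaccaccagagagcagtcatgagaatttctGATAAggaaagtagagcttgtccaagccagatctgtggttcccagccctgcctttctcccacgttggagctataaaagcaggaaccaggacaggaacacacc
Mcpt1 (chr14:56017714-56017963, plus strand): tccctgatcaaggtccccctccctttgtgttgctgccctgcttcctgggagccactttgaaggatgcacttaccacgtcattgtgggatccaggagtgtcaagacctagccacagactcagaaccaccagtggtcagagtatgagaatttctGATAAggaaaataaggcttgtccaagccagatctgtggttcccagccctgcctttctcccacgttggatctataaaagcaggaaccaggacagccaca
Cpa3 (chr3:20242182-20242431, minus strand): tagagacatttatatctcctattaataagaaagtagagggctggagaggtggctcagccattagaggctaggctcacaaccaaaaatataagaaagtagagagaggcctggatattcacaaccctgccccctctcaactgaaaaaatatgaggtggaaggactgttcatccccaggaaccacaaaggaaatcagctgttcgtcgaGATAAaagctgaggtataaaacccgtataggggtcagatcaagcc
The Mcpt1 and Mcpt4 windows were identical at 209 of 247 aligned positions, gaps counted as differences (84.6%). Transcript and probe sequences were not compared. Of the 10 genes, 8 had a promoter entry, and 6 of these 8 held GATAA on either strand, against 22.6% of all 32851 promoter windows of the same length. Hdc and Kit did not hold these letters in this window. The letters CATGTG or CACATG, an E-box that MITF binds, were found in 1 of the 8, Fcer1a, against 12.3% of all windows. These matches describe letters only.

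A probe set was tested where its signal reached the 40th percentile of its array (a signal of 43.4 to 53.3) in at least 4 of the 9 arrays. By this filter 6 of the 15 mast cell probe sets were kept, for Tpsb2, Cma1, Cpa3 and Kit. The other 9 were dimmer, and 6 genes had no kept probe set: Tpsab1, Mcpt4, Mcpt1, Fcer1a, Ms4a2 and Hdc. Mast cell transcripts of skin were thus read by the granule proteases Tpsb2, Cma1 and Cpa3, and by Kit, which melanocytes also carry. The FcεRI chains Fcer1a and Ms4a2 were below the filter in all 9 arrays.

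Of the 6 kept probe sets, 0 passed limma's test at an adjusted p of 0.05 over all 7658 kept probe sets, where 4 probe sets (0.0522%) passed. At an unadjusted p under 0.05, 1 of the 6 was called, with a lower value in the knockout, against 9.4% of all kept probe sets (3.96% with lower values). Without any filter 0 of the 15 passed and the same 1 was called unadjusted, against 0.0483% and 8.51% of 12422. Of the 6, 5 had a log2 difference (knockout minus wild type) below 0, as had 48.8% of all kept probe sets, and 1 had one above 0. Their median log2 difference was -0.09, beside 0.01 over all kept probe sets. The groups did not overlap for 1 of the 6, against 3.21% of all kept probe sets. The 2 kept tryptase probe sets had a median log2 difference of -0.38, and the kept Cma1 probe set and the 3 kept probe sets of the other members had values of -0.0050 and a median of -0.01. In whole skin, fewer cells of a type and less RNA per cell cannot be told apart.

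**Figure D1:**
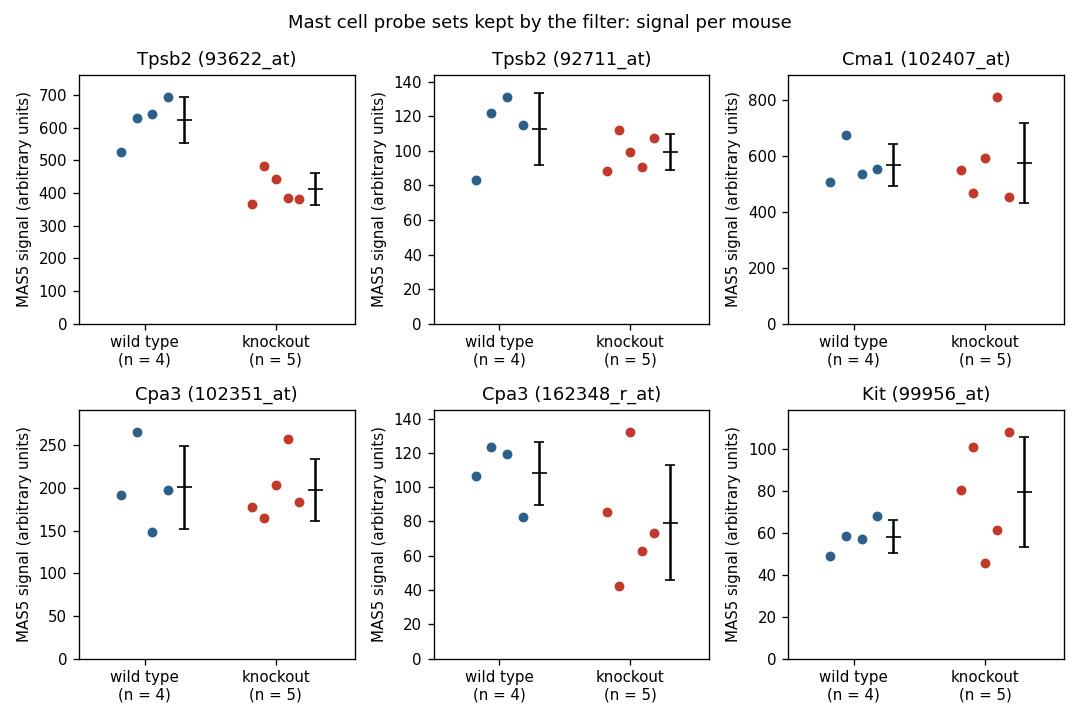
MAS5 signal (arbitrary units, axes from 0) of the 6 kept mast cell probe sets, 1 point per mouse, with wild-type mice in blue and knockout mice in red and the mean ± SD as a bar beside each group. For Tpsb2 93622_at the 5 knockout points (365.7 to 483) lie below the 4 wild-type points (524.4 to 692.3), while the groups overlap in the other 5 panels.

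Tpsb2 encodes the tryptase of connective tissue mast cells, also called mMCP-6. Its brighter probe set, 93622_at, read 365.7, 483.0, 442.3, 384.6 and 381.5 in the knockout mice and 524.4, 629.5, 641.7 and 692.3 in the wild-type mice. Every knockout mouse was below every wild-type mouse, a pattern that 1.38% of all kept probe sets showed in this direction. The means were 411 ± 49.5 (SD, n = 5) and 622 ± 70.5 (SD, n = 4), a log2 difference of -0.60 (SE 0.13, 95% interval -0.88 to -0.31), or 66.1% of the wild-type level (54.2% to 80.6%). It ranked 27 by p among the 7658 probe sets, with a limma p of 0.00072 and an adjusted p of 0.204, so it did not pass. Leaving out each array in turn gave log2 differences between -0.68 and -0.54 and limma adjusted p values between 0.194 and 0.592. Deposited values have 7 decimals in 5 arrays and 9 in 4, and what this marks is not given in the sources used here. The log2 difference was -0.64 within the arrays of 7 decimals (2 knockout, 3 wild-type) and -0.38 within those of 9 decimals (3 knockout, 1 wild-type).

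The second Tpsb2 probe set gave a smaller difference. Probe set 92711_at read 88.2, 112.2, 99.1, 90.7 and 107.3 in the knockout mice and 83.4, 121.7, 130.9 and 114.8 in the wild-type mice. The lowest value of all was that of wild type 1, and the 5 knockout values lay inside the wild-type range. The log2 difference was -0.17 (SE 0.17, 95% interval -0.53 to 0.20; limma adjusted p = 0.792), and within the arrays of 9 decimals, with their 1 wild-type mouse, it was 0.24. With 1 array left out it ran from -0.30 (without wild type 1) to -0.09 (without wild type 3). Within an array, the log2 signal of 93622_at minus that of 92711_at, each centred on its mean over the 9 arrays, was -0.41 to -0.08 in the knockout and 0.06 to 0.41 in the wild-type mice. The probe sets thus gave different distances between the groups for the same gene, a difference that was not tested, and only the brighter one separated them.

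Tpsab1, the neighbouring tryptase (mMCP-7), was at the bottom of the scale. Its probe set 97109_at read 2.3 to 3.4 in the 5 knockout mice (median 2.6) and 2.0 to 3.5 in the 4 wild-type mice, far under the filter level in each array. The groups overlapped throughout, and the unfiltered log2 difference of 0.02 (SE 0.40; limma adjusted p = 0.994) rests on values at which no change could be read. In the mice of both groups the tryptase signal above the filter was therefore that of Tpsb2.

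Red blood cell genes also separated the groups, with lower values in the knockout. The red-cell list (Hba-a1, Hbb-b2 and Alas2, 3 of its 5 genes on the array and all 3 kept) had array medians of -0.83 to -0.22 in the knockout and 0.44 to 1.12 in the wild-type mice, as log2 centred on the 9 arrays, with summed signals of 1324.5 to 2012.8 and 3293 to 5017. Hba-a1 and Hbb-b2 passed, with lower values in the knockout (limma adjusted p = 0.00531 and 0.00896). Markers of macrophages and dendritic cells had array medians of -0.30 to 0.02 against 0.05 to 0.30. Values were lower in 20 of 20 kept genes, beside 48.8% of all kept probe sets. Of the 20, 0 passed, where 0.0522% of all kept probe sets did. At an unadjusted limma p at or under 0.05, 10 of the 20 were called, against 9.4% of all kept probe sets. The groups did not overlap for 2 of the 20, against 3.21%. Skeletal muscle genes had lower values in 9 of 9 kept genes, of which 0 passed and 3 were called unadjusted. Their array medians overlapped, at -0.27 to -0.04 against -0.12 to 0.33. The part of red cells, macrophages, dendritic cells and muscle in the Tpsb2 difference was not tested.

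Cma1, the chymase mMCP-5 of connective tissue mast cells, had nearly equal means in both groups. Its bright probe set 102407_at read 547.5, 467.4, 591.8, 808.1 and 453.6 in the knockout mice and 504.8, 673.0, 534.5 and 552.6 in the wild-type mice. Knockout 4 had the highest value and wild type 2 the next, and the groups overlapped throughout. The means were 574 ± 143 (SD, n = 5) and 566 ± 73.9 (SD, n = 4), with a log2 difference of -0.0050 (SE 0.17; limma adjusted p = 0.996). The 95% interval, -0.39 to 0.38, corresponds to 76.5% to 130% of the wild-type level. A change within that range is thus compatible with the values of these mice.

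The other probe sets annotated to Cma1 were dim. 102408_g_at, whose suffix marks probes shared with a related probe set, read 20.1, 28.8, 17.0, 226.9 and 17.9 in the knockout mice and 20.5 to 32.8 in the wild-type mice. Only knockout 4, which also had the highest 102407_at signal, was above the filter there, by a wide margin over the next value of 28.8. 102406_at read 1.2 to 5.3 over the 9 mice and carried no usable level.

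Mcpt4, the chymase mMCP-4 of connective tissue mast cells, was below the filter in 8 of 9 arrays. Its probe set 104382_at read 10.4, 19.9, 32.4, 43.0 and 25.0 in the knockout mice and 31.6, 51.4, 28.9 and 23.1 in the wild-type mice. As for Cma1, knockout 4 and wild type 2 had the highest values of their groups, which overlapped. Without any filter the log2 difference was -0.46 (SE 0.41, 95% interval -1.36 to 0.45; limma adjusted p = 0.824).

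Mcpt1, the mucosal chymase mMCP-1, was dim as well. 94728_f_at, a probe set whose suffix marks a family of similar transcripts, read 27.8, 50.0, 63.9, 18.3 and 15.4 in the knockout mice and 34.0, 39.6, 14.9 and 35.3 in the wild-type mice. Its highest and next highest values were those of knockout 3 and 2, and knockout 4, high for Cma1 and Mcpt4, was low here. 94729_r_at read 3.2 to 12.9 in the knockout and 4.5 to 8.6 in the wild-type mice. The unfiltered log2 differences were 0.06 (SE 0.47) and 0.01 (SE 0.45).

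**Figure D2:**
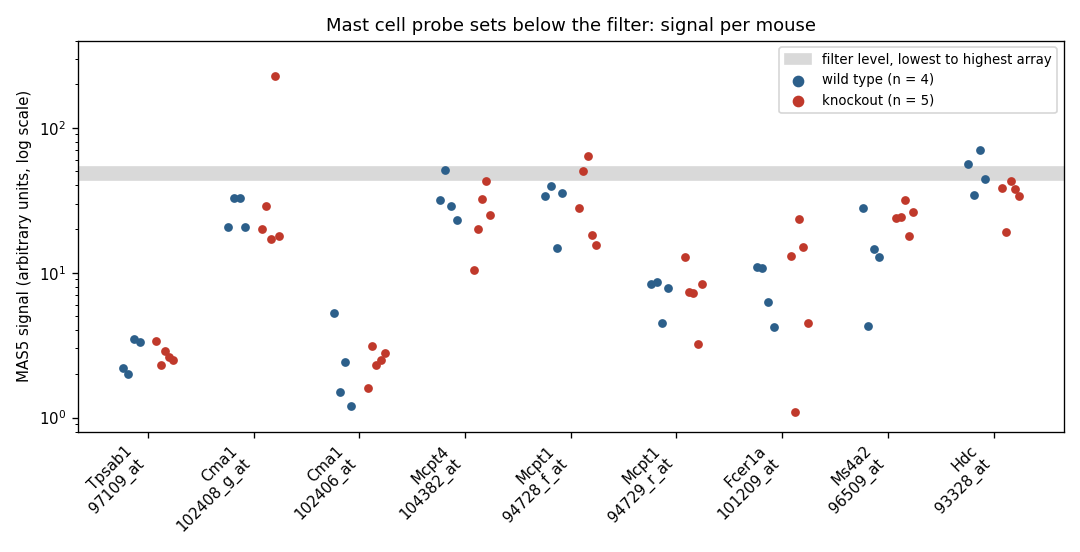
MAS5 signal (arbitrary units, log axis) per mouse for the 9 mast cell probe sets below the filter, wild-type mice in blue and knockout mice in red, with the filter level of the 9 arrays (43.4 to 53.3) as a grey band. The groups overlap for each probe set, and 1 knockout point for Cma1 102408_g_at stands at 226.9.

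Cpa3 encodes mast cell carboxypeptidase A, which is stored in the granules with the chymases. Probe set 102351_at read 178.1, 164.4, 203.6, 257.1 and 184.0 in the knockout mice and 191.4, 265.2, 148.5 and 197.1 in the wild-type mice. Knockout 4 and wild type 2 were again the highest of their groups, which overlapped. The means were 197 ± 36.2 (SD, n = 5) and 201 ± 48.3 (SD, n = 4), with a log2 difference of -0.0097 (SE 0.18, 95% interval -0.41 to 0.39; limma adjusted p = 0.992). The dimmer probe set 162348_r_at, a class with probes outside the usual design rules, read 85.5, 42.4, 132.0, 62.7 and 73.5 in the knockout and 106.4, 123.5, 119.2 and 82.7 in the wild-type mice. Of the knockout mice, 3 lay under the wild-type range and 1 above it, with a log2 difference of -0.53 (SE 0.29, 95% interval -1.15 to 0.09; limma adjusted p = 0.591). It was -0.33 without knockout 2 and -0.74 without knockout 3. Within an array, centred 102351_at minus centred 162348_r_at was -0.54 to 0.87 in the knockout and -0.85 to 0.08 in the wild-type mice, so the groups overlapped in this difference, unlike for Tpsb2.

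**Figure D3:**
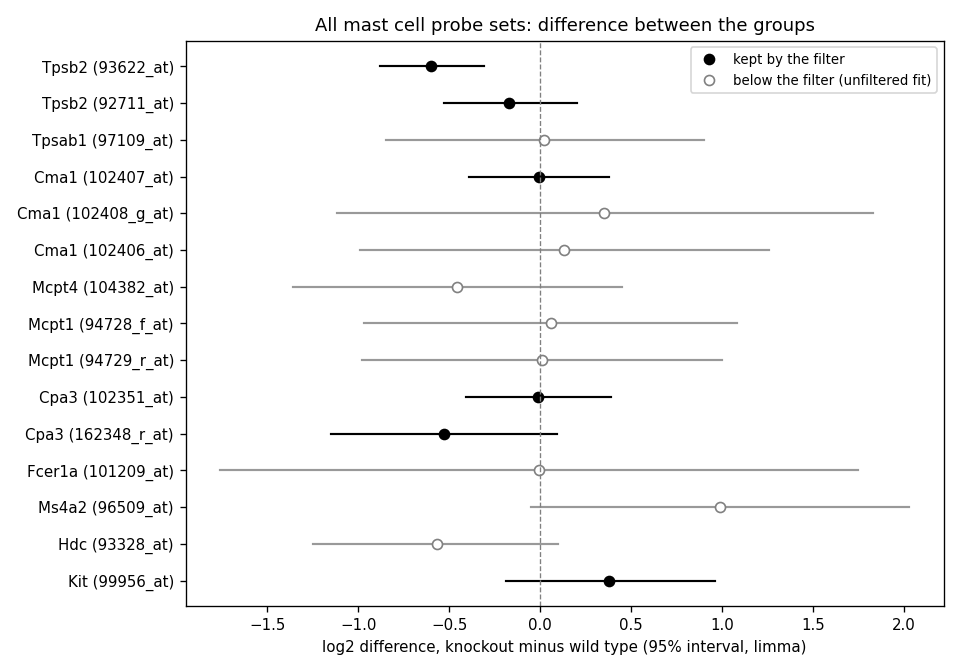
Log2 difference (knockout minus wild type) with its 95% interval from limma for each of the 15 mast cell probe sets, filled circles for the 6 kept by the filter and open circles for the 9 below it, taken from the fit without a filter. The interval of Tpsb2 93622_at (-0.88 to -0.31) is the only one that leaves out 0, before adjustment over all probe sets.

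No pair of the kept genes had a correlation between mice that passed after adjustment. The 6 pairs of the 4 kept genes, each by its brighter probe set, were correlated over the 9 arrays. Cma1 and Cpa3 had a Pearson r of 0.80 (exact permutation p = 0.0104, adjusted over the 6 pairs 0.0627) and a Spearman rho of 0.77 (exact permutation p = 0.0214, adjusted 0.128), so the pair did not pass after adjustment. As deviations from the group means r was again 0.80. Without knockout 4 and wild type 2, the arrays farthest from the median of Cma1, r was 0.32 (n = 7, exact permutation p = 0.479). The rho was then 0.54 (exact permutation p = 0.236). Taking out the extreme arrays of Cma1 narrows its range, which by itself can lower r, so what the 0.80 rests on is not decided. Tpsb2 had r = -0.03 with Cma1 (rho 0.12) and -0.06 with Cpa3 (rho 0.05), with exact permutation p values of 0.939 and 0.874 for r and 0.776 and 0.912 for rho. Its adjusted values were 0.939 for both r and 0.912 for both rho. Without wild type 3 and 4 these r were 0.06 and 0.33, the latter close to the 0.32 of Cma1 and Cpa3 without their farthest arrays, and differences between the correlations were not tested. Kit had r = -0.36 with Tpsb2, -0.50 with Cma1 and -0.33 with Cpa3 (rho -0.38, -0.45 and -0.33). The exact permutation p values for r were 0.337, 0.165 and 0.391 (adjusted 0.586, 0.496 and 0.586). Without the 2 arrays farthest from the median of Tpsb2, Cma1 or Cpa3, in that order, these r were -0.40, -0.74 and -0.28 (n = 7). The arrays of 7 and of 9 decimals, 5 and 4 in number, are too few for a correlation within each.

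Within an array, Tpsb2 relative to Cma1 was -0.39, 0.24, -0.23, -0.88 and -0.06 in the knockout mice and 0.25, 0.10, 0.46 and 0.52 in the wild-type mice, as a difference of centred log2 signals. The brighter probe set of each gene was used, and only knockout 2 reached the wild-type range. The same difference was not computed for the dimmer Tpsb2 probe set, which did not separate the groups. The centred log2 signals of that probe set were -0.24 to 0.11 in the knockout and -0.32 to 0.33 in the wild-type mice. Cma1 relative to Cpa3 stayed between -0.22 and 0.13 in the knockout and between -0.18 and 0.33 in the wild-type mice, a narrower range over the 9 mice than that of Tpsb2 relative to Cma1. No test was made of these ratios.

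**Figure D4:**
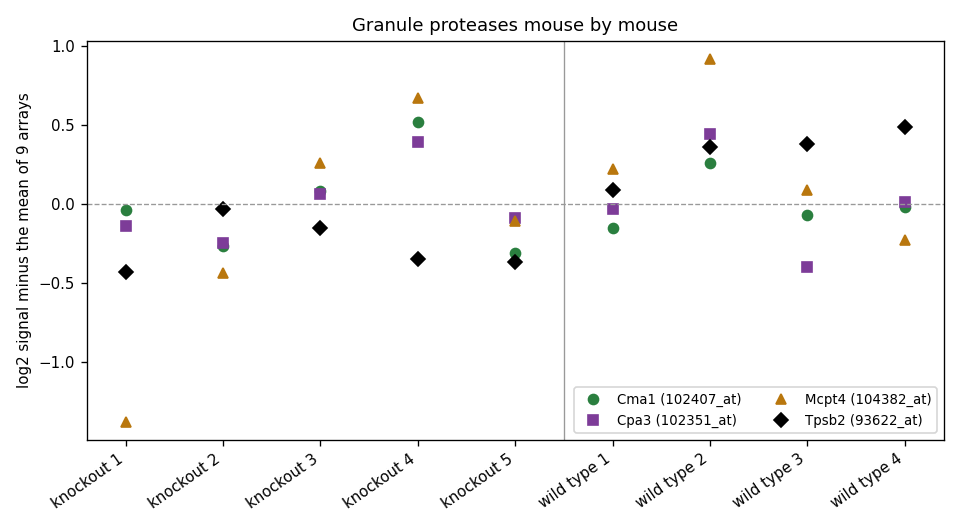
Log2 signal of 4 granule proteases in each mouse, minus the mean of the 9 arrays, for Cma1 (green circles), Cpa3 (purple squares), Mcpt4 (orange triangles, below the filter in 8 of 9 arrays) and Tpsb2 93622_at (black diamonds). Knockout 4 and wild type 2 are high for Cma1 (0.52 and 0.26), Cpa3 (0.39 and 0.44) and Mcpt4 (0.67 and 0.92), while Tpsb2 is at -0.35 in knockout 4 and 0.36 in wild type 2.

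Of the IgE receptor, Fcer1a, the chain that binds IgE, read 13.1, 1.1, 23.3, 15.1 and 4.5 in the knockout mice and 11.0, 10.7, 6.3 and 4.2 in the wild-type mice (101209_at). Ms4a2, the chain that amplifies its signal, read 23.7, 24.1, 31.9, 17.9 and 26.2 in the knockout and 28.0, 4.3, 14.6 and 12.8 in the wild-type mice (96509_at). Each lay under the filter in all 9 arrays with overlapping groups. Without a filter the log2 differences were -0.01 (SE 0.80, limma adjusted p = 0.999) for Fcer1a and 0.99 (SE 0.48, adjusted p = 0.612) for Ms4a2, the latter resting on dim signals. The third chain, Fcer1g, which macrophages share, was also below the filter in both of its probe sets.

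Hdc, which makes histamine from histidine, lay close to the filter and reached it in 2 of 9 arrays. Probe set 93328_at read 38.5, 19.0, 43.2, 37.6 and 34.0 in the knockout mice and 56.5, 34.1, 70.2 and 44.0 in the wild-type mice. Of 4 wild-type values, 3 were above every knockout value, with means of 34.5 ± 9.24 (SD, n = 5) and 51.2 ± 15.6 (SD, n = 4). The unfiltered log2 difference of -0.57 (SE 0.31, 95% interval -1.25 to 0.10) had a limma adjusted p of 0.655.

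Kit was the only kept probe set with a log2 difference above 0, and its spread was wider in the knockout than in the wild type. Its probe set 99956_at read 80.5, 100.9, 45.6, 61.1 and 107.9 in the knockout mice and 49.1, 58.4, 57.1 and 68.1 in the wild-type mice. Knockout 1, 2 and 5 were above every wild-type mouse, and knockout 3 was below them. The means were 79.2 ± 26.2 (SD, n = 5) and 58.2 ± 7.79 (SD, n = 4), with a log2 difference of 0.38 (SE 0.26, 95% interval -0.19 to 0.96; limma adjusted p = 0.689).

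Some hair follicle and pigment genes had high signals in mice with high Kit. Krt25, an inner root sheath keratin of growing hair, read 2648, 4916, 52.1, 4.6 and 2893 in the knockout mice and 3.0 to 148.3 in the wild-type mice, so the same 3 knockout mice were high. The melanosome gene Pmel read 374.3, 433.3, 100.0, 95.4 and 133.6 in the knockout and 76.5 to 109.8 in the wild-type mice. Dct, an enzyme of melanin synthesis, read 590.1, 856.2, 208.8, 148.6 and 365.6 against 183.0 to 221.5. The limma adjusted p values were 0.466 for Krt25, 0.469 for Pmel and 0.562 for Dct. The other kept melanocyte genes did not follow Kit in knockout 5, its highest mouse. Mc1r, the melanocortin receptor, read 94.9, 87.9, 39.4, 49.8 and 53.2 in the knockout and 48.6 to 55 in the wild-type mice. Sox10, a factor of melanocytes and nerve sheath cells, read by its kept probe set 226.2, 267.7, 216.7, 184.1 and 189.7 against 199.8 to 295.8, so knockout 5 lay below every wild-type mouse. Of 11 melanocyte genes 9 were on the array and 4 were kept, with array medians of -0.38 to 1.14 in the knockout and -0.35 to -0.24 in the wild-type mice (-0.03 in knockout 5), and summed signals of 477.9 to 1645.1 and 524.5 to 615. Tyr, Tyrp1, Oca2, Gpr143 and Ednrb were below the filter. When the median of the hair follicle list entered the limma fit as a covariate, the log2 difference of Kit was 0.05 (limma adjusted p = 0.960), while that of Tpsb2 93622_at was -0.63 (adjusted p = 0.287). In the same fit those of Cma1 102407_at and Cpa3 102351_at were 0.25 and 0.21. The hair follicle medians were 1.19, 2.75, -0.75, -1.74 and 2.54 in the knockout and -1.40 to 0.05 in the wild-type mice. The highest were thus all in knockout mice, and this fit cannot fully tell hair growth and genotype apart. The part of melanocytes in the Kit signal was not tested.

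**Figure D5:**
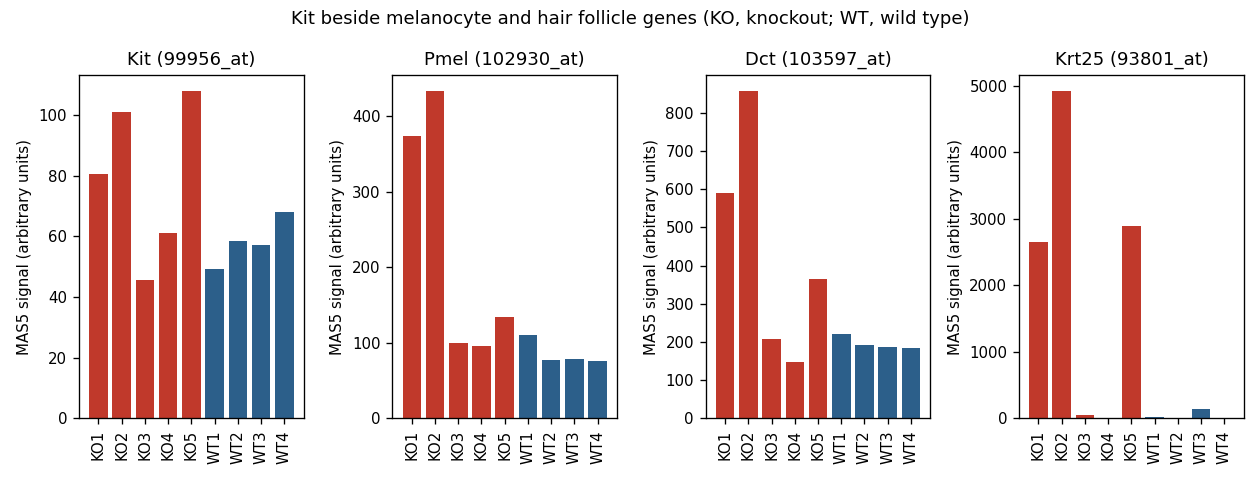
MAS5 signal (arbitrary units, axes from 0) of Kit, the melanocyte genes Pmel and Dct and the hair follicle keratin Krt25, 1 bar per mouse, knockout (KO) in red and wild type (WT) in blue. Knockout 1, 2 and 5 have the highest Kit (80.5, 100.9 and 107.9) and Krt25 signals, while Pmel stands apart in knockout 1 and 2 (374.3 and 433.3).

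In lists of genes around these members 0 passed, which says little where only 0.0522% of all kept probe sets passed. Of all kept probe sets, 48.8% had lower values and 9.4% were called at an unadjusted limma p at or under 0.05. A list of 22 genes covered FcεRI signalling and its restraint, with the IgG receptors Fcgr2b and Fcgr3 among them. Of the 22, 20 were on the array and 17 were kept. Of the 17, 14 had lower and 3 higher values, with a median log2 difference of -0.19. In either direction 0 passed, and 3 were called unadjusted. The kinase Btk read 110 ± 13.1 against 139 ± 16.3 (log2 -0.34), the phosphatase Inpp5d (SHIP1), which restrains mast cell release, 48.1 ± 26.1 against 81.3 ± 6.64 (-0.99), and Pik3r1, a PI3-kinase subunit, 205 ± 37.6 against 135 ± 34.5 (0.62). Their limma adjusted p values were 0.511, 0.520 and 0.413. Many of these genes are shared with other white blood cells, whose macrophage and dendritic cell markers also had lower values, and their part was not tested.

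Of 13 genes of the Kit pathway and mast cell transcription factors, 11 were on the array and 8 were kept. Of the 8, 5 had higher and 3 lower values, with 0 passing and 0 called unadjusted (median 0.09). The Kit ligand Kitl read 108.9 to 163.6 over the 9 mice, with a log2 difference of 0.14 (limma adjusted p = 0.799). Mitf, a factor that mast cells share with melanocytes, had 60.3 ± 14.5 against 41.4 ± 10.3 (0.55, adjusted p = 0.552), and Gata2, a factor of mast cells and basophils, 183 ± 34.3 against 178 ± 29.9 (0.04, adjusted p = 0.966).

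Of 20 genes for granule content, lipid mediators and histamine receptors, 11 were on the array and 6 were kept. Of the 6, 3 were higher and 3 lower, with 0 passing, 2 called unadjusted (against 9.4% of all kept probe sets) and a median of -0.07. Ltc4s, which makes leukotriene C4, read 257 ± 52.8 against 332 ± 7.56 (log2 -0.39), and Snap23, of the exocytosis machinery, 114 ± 13.2 against 74.7 ± 34.5 (0.74), with limma adjusted p values of 0.471 for each. Of 17 cytokine and surface receptors 11 were on the array and 6 were kept. All 6 had lower values (48.8% of all kept probe sets did), with 0 passing and 2 called unadjusted (median -0.27). Among them were Itgb7, an integrin chain used in mast cell homing (233 ± 37.5 against 292 ± 29.2, log2 -0.33), and Il3ra, the IL-3 receptor (108 ± 16.1 against 140 ± 34.3, -0.35). Of 11 other granule proteases 6 were on the array, and Mcpt2, Mcpt8, Ctsg and Gzmb of these were below the filter. The kept Prss8 and Ctsc, which are also made outside mast cells, had log2 differences of -0.04 and 0.02. Mcpt8, the basophil protease, was thus below the filter, and of the 6 basophil genes, 3 of them on the array, only Il3ra and Gata2 were kept.

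The kept genes whose signal most resembled the mean of Tpsb2, Cma1, Cpa3 and Kit over the 9 arrays were Acyp1 (Pearson r 0.94), Cfp (0.92), Fcf1 (0.91), Macir (0.88) and Atp6v0b (0.88). They were picked as the highest r among 6913 probe sets and are given as a description. That mean joins genes that did not all vary together, so it need not follow each of them. Kit had r of -0.50 to -0.33 with the proteases, and Tpsb2 had -0.03 with Cma1 and -0.06 with Cpa3. The mean ranged only from -0.14 to 0.21 in centred log2, and the log2 differences of the 5 genes between the groups lay between -0.12 and -0.06.

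As a check of the labels, the targeted gene Cd1d1 read 47.6 to 79.6 in the 5 knockout and 91.0 to 130.0 in the 4 wild-type mice, without overlap (log2 -0.86, limma adjusted p = 0.242). Where its probes lie relative to the deletion was not checked here. Markers of whole skin were present, with 5 of 7 epidermal genes and 7 of 8 fibroblast genes on the array kept, while Krt5 and Krt14 of the basal layer were below the filter.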

How the data were processed

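RNA of whole skin from 5 knockout and 4 wild-type mice was read on 1 array per mouse. Per the labels and the submitters' processing notes, signals came from Microarray Suite 5.0 (MAS5), run by the authors. The deposited values are natural log signals: the exponential of every value lies within 0.0006 of a multiple of 0.1, and the mean signal, trimmed by 2% at each end, is 200.1 in every array. They were divided by the natural log of 2, with no pseudocount and no further scaling; 1 value was missing and 66 control probe sets were left out. Detection calls were not used here, and the number of mice limits the precision.

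Gene names came from GEO's platform annotation, updated through Entrez identifiers, and promoters from RefSeq (GRCm38.p6). Differences were fitted with limma 3.58.1 in R 4.3.3 (lmFit, eBayes with a trend), two-sided; p values were adjusted by Benjamini-Hochberg over the 7658 kept probe sets. The code of the fit was tried on simulated data, drawn independently for each probe set and array. Those data hold no pattern shared across probe sets, such as hair growth, so the trial is no support for any result here. Gene lists used the kept probe set of highest mean per gene. From each list up to 3 genes with the smallest p could be named, and the genes most like the members were the 5 with the highest r. Kitl, Krt25, Gata2, Cd1d1, Tyrp1 and Oca2 were named after their values were seen. Mc1r was named outside the rule of smallest p, so that each kept melanocyte gene is given. Alternatives covered the filter, scaling, pseudocount, variance trend, left-out arrays, replicate numbers, decimals and hair growth. Members, lists and tests were chosen with earlier results of these data known.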

Additional observations from a re-analysis of the deposited data

Results flagged for a closer look

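Within each group, the highest and the lowest array of each mast cell probe set and of 12 marker or pathway list medians was compared with the rest by Dixon's gap test on the log2 scale, 54 groups in all, of which chance marks about 5%. Of these, 4 stood apart. Cma1 102408_g_at read 227 in knockout 4, with the next knockout value at 28.8. The Mcpt1 probe sets 94728_f_at and 94729_r_at were low in wild type 3, at 14.9 and 4.5, with the next values at 34.0 and 7.8. The median of the epidermal list was 0.69 (centred log2) in knockout 4, with the next knockout value at 0.07.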

How the results depend on the processing

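Over 21 alternatives, 0 mast cell probe sets passed in each, as in the main setting, and 0 of 6 correlations passed in each of their 3 alternatives. The log2 difference of Tpsb2 93622_at stayed below 0 in all 21 (-0.68 to -0.38). Over the 20 that kept them, since the filter at the 60th percentile did not, that of Cpa3 162348_r_at stayed below 0 (-0.83 to -0.29) and that of Kit above 0 (0.05 to 0.57). The differences near 0 changed sign. With 1 array left out that of Cma1 102407_at ran from -0.14 (without knockout 4) to 0.08 (without wild type 2), and that of Cpa3 102351_at from -0.14 (without wild type 3) to 0.13 (without wild type 2); each was above 0 without knockout 1, 2 or 5 or wild type 2. With the replicate block they were 0.07 and 0.01, with the hair follicle covariate 0.25 and 0.21, and within the arrays of 9 decimals 0.25 and 0.15, where Tpsb2 92711_at was at 0.24. The median over the kept mast cell probe sets was -0.25 within the arrays of 7 decimals and 0.20 within those of 9. The cause was not tested.

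Among all probe sets, the 4 that passed became 4 to 8 with 1 array left out, 7 at pseudocount 64, 10 within the arrays of 7 decimals and 0 within those of 9 (1 wild-type mouse, assumed to vary like the others). With the hair follicle covariate 1 passed, and with the replicate block 1 passed, a fit with fewer residual degrees of freedom. Same-numbered mice did not deviate together (r of -0.05 to 0.11 over 4 pairs), so the numbers were not taken as pairs. Depth does not apply to arrays, but the dim signals of 9 probe sets limit what can be said of them.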
